A study of Homo sapiens with 8 samples.

Results

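The genes described here are the zinc finger genes of human chromosome 19, chosen as the protein-coding genes whose symbol is ZNF followed by a number (with or without 1 closing letter) and whose listed position is on that chromosome. There were 182 such genes among 34164 genes listed in either of 2 expression tables, 177 of them in the inhibitor table, 168 in the knockdown table and 163 in both. The cells were Kyse510, a human esophageal squamous cell carcinoma (ESCC) line, and each of 8 RNA-seq libraries stood alone for its condition. For the inhibitors, the cells were given vehicle (DMSO), 7 µM SP2509, an inhibitor of the histone demethylase LSD1, 7 µM UNC0642, an inhibitor of the histone methyltransferase G9a, or both together, for 2 days. No separate dose is given for the combination. In the genetic arm, cells carried a doxycycline-inducible, lentivirally delivered shRNA against LSD1 (shLSD1) or against G9a (shG9a), had been selected with puromycin for 14 days, and were left without doxycycline (Dox) or kept with it for 2 days. Both arms had controls of their own, so each inhibitor library was set against vehicle and each induced line against the same line without Dox. Whether each line was 1 clone or a pool is not given in the sources used here. No non-targeting shRNA library was analysed here, so the effect of Dox itself cannot be told apart from that of the shRNA.

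C2H2 zinc finger proteins bind DNA through repeated fingers, each held in shape by a zinc ion. Many of those encoded on chromosome 19 also carry a KRAB domain, which recruits the corepressor TRIM28 and through it the histone methyltransferase SETDB1 and HP1 proteins, and many bind and silence transposable elements. The genes arose by tandem duplication and lie in runs of related neighbours. G9a, encoded by EHMT2, methylates lysine 9 of histone H3, and LSD1, encoded by KDM1A, removes methyl groups from histone H3.

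The values are FPKM (fragments scaled by transcript length and library size), which the authors deposited. The FPKM values fall on steps of 1 read, so whole reads were recovered, and the libraries held between 15662035 reads (vehicle) and 17889466 reads (UNC0642). A gene was tested when it reached 1 FPKM in at least 1 of the 2 libraries compared. It was called higher or lower when the ratio of FPKM + 1 was at least 1.3 in either direction and the Benjamini-Hochberg adjusted p of a two-sided exact binomial test on the reads was below 0.05. With 1 library per condition this test compares 2 libraries and not 2 conditions, it covers counting error only, and no difference below has a replicate check. Of the 182 genes, 118 were tested in at least 1 of the 5 comparisons, 81 were tested in all 5, and 64 stayed below 1 FPKM in every library. Among the 118 tested genes, 97 were called at least once and 21 never were. The share of all genes called at least once was not counted, so these counts are descriptions. The combination alone called 28.8% of all genes tested higher and 28.9% lower.

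The targeted genes were measured first. KDM1A stood at 26.0 FPKM in the shLSD1 line without Dox and at 6.29 FPKM with Dox, and with shG9a EHMT2 fell from 7.85 to 4.76 FPKM. KDM1A itself rose from 26.4 to 35.8 FPKM when shG9a was induced. Of 8 squamous and epithelial markers, 6 were above 1 FPKM in every library (among them KRT5 at 74.6 to 734 FPKM and TP63 at 18.3 to 127 FPKM), SOX2 ranged from 0.313 to 38.8 FPKM and KRT6A from 0.676 to 20.03 FPKM, and the summed level was 320 to 1180 FPKM, while the leukocyte markers PTPRC and CD3E were at or below 0.0425 FPKM. Of the other markers that a pure culture should lack, COL1A1 was at 2.92 to 5.36 FPKM and the summed level of all 6 was 3.58 to 6.79 FPKM, and its part in the results was not tested.

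The promoters of 4 neighbouring genes are printed because they belong to ZNF302, which had the lowest log2 ratio with SP2509, and to genes of the run around it. They come from RefSeq (GRCh38.p14) and run from 250 bases before to 50 bases after the start site, 5′ to 3′ on the strand of the gene. Capitals mark GGGCGG and CCGGAAG on either strand, the letters of GC boxes and of ETS factor sites. ZNF302 is at chr19:34677428-34677727 on the plus strand, ZNF181 at chr19:34733993-34734292 on the plus strand, ZNF599 at chr19:34773166-34773465 on the minus strand and ZNF792 at chr19:34964180-34964479 on the minus strand. Their other neighbour, ZNF30, is named only.

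ZNF302: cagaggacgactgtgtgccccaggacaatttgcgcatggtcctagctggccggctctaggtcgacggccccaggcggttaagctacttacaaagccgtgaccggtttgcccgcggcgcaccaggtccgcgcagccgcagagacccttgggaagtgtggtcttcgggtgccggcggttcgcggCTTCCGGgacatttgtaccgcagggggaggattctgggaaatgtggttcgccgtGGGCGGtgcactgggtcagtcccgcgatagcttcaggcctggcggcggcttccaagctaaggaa
ZNF181: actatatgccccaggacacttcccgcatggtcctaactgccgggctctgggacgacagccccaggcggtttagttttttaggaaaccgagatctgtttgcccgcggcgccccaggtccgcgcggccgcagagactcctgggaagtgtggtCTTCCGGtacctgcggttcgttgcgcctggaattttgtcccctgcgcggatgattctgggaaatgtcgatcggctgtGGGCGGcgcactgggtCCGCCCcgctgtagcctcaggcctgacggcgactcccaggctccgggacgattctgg
ZNF599: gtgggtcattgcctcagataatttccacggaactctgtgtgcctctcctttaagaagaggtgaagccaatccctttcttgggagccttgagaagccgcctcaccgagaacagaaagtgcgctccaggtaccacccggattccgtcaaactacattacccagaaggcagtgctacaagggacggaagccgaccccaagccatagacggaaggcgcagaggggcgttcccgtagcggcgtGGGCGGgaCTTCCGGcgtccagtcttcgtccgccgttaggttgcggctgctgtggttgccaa
ZNF792: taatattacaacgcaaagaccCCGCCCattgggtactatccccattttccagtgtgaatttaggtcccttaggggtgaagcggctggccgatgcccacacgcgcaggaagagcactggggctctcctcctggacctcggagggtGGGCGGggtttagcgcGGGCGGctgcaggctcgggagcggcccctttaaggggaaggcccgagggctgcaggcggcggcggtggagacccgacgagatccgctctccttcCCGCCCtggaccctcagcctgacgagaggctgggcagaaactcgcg

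The ZNF302 and ZNF181 promoters are alike: over 290 aligned bases they were identical at 233 (80.3%). Both hold CCGGAAG on the minus strand and GGGCGG after it. ZNF599 holds the same pair of motifs, and ZNF792 holds GGGCGG only. None of the 4 holds TATAAA. Of 189 promoter windows of 159 members in the RefSeq table, 36.5% held CCGGAAG, against 10.3% of all 35116 promoter windows and 28.5% of the 288 windows of ZNF genes on other chromosomes. GGGCGG was in 62.4% of the members' windows and in 45.0% of all, and TATAAA was in 1.59% and 11.5%. AAGATGG, the letters of a YY1 site, was in 10.1% and 5.84%, GCGCATGC, of an NRF1 site, in 5.29% and 3.05%, and TGACGTCA, of a CREB site, in 4.23% and 1.85%. The median G+C content was 60.7% in the members and 58.7% over all windows. In the 288 windows of ZNF genes on other chromosomes the median G+C content was 62.3%. GGGCGG was in 56.25% of those windows, TATAAA in 5.56%, AAGATGG in 5.21%, GCGCATGC in 5.90% and TGACGTCA in 3.125%. Windows of 1 gene can overlap, so these shares are descriptions, and a match is no evidence of binding.

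Most of these genes were expressed at low levels, and in bulk RNA fewer cells with a transcript and less of it per cell cannot be told apart. With vehicle the median over the 177 listed members was 1.16 FPKM, against 2.39 FPKM for ZNF genes on other chromosomes and 2.71 FPKM for all protein-coding genes, and 16 members were at 0. The highest was ZNF146, a gene of zinc fingers without a KRAB domain that is often overexpressed in carcinomas. ZNF146 was at 126 FPKM in the vehicle library, 80.5 under SP2509, 87.8 under UNC0642 and 123 under the combination, and in the genetic arm it was at 62.0 FPKM without and 76.2 with Dox in the shLSD1 line and at 65.7 without and 56.9 with Dox in the shG9a line. Both single inhibitors lowered it (log2 ratio -0.65 with SP2509 and -0.52 with UNC0642), and it was not called with the combination or in either line. The next highest medians over all libraries were 39.5 FPKM for ZNF581, 11.0 for ZNF524, 9.72 for ZNF761 and 8.44 for ZNF579. Of the 177 members, 93 reached 1 FPKM in the vehicle library, while 71 did so under SP2509, 77 under UNC0642 and 97 under both.

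With UNC0642 the calls among these genes went in 1 direction. Of 93 tested, 40 were lower and 0 were higher than with vehicle, while among all 13244 tested genes 13.6% were lower and 15.4% were higher. The median log2 ratio was -0.33 for the members, -0.01 for all genes tested and 0.01 for 2188 protein-coding genes whose vehicle level lay between the quartiles of the members' levels (1.44 to 3.79 FPKM), of which 12.4% were lower and 17.6% higher. Ratios of 81 of the 93 lay below 0. ZNF genes on other chromosomes were lower in 50 and higher in 8 of 175, with a median of -0.20, and the other protein-coding genes of chromosome 19 were lower in 76 and higher in 104 of 595, with a median of 0.03. The median was thus below 0 in both sets of ZNF genes, and differences between the sets were not tested. A gene that passes the filter through its vehicle value alone has to be lower with the inhibitor, so the filter was also set on the uninduced shRNA libraries, which have no part in the comparison. Of the 73 members at 1 FPKM or more in both of those, 32 were lower and 0 higher with UNC0642, and 65 lay below 0 (median log2 ratio -0.34, against -0.02 over all 11431 genes so chosen, of which 13.9% were lower and 14.5% higher). Without a filter, 46 of 168 members with a read were lower and 0 higher, against 6.94% lower and 8.24% higher of all 27480 genes.

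**Figure D1:**
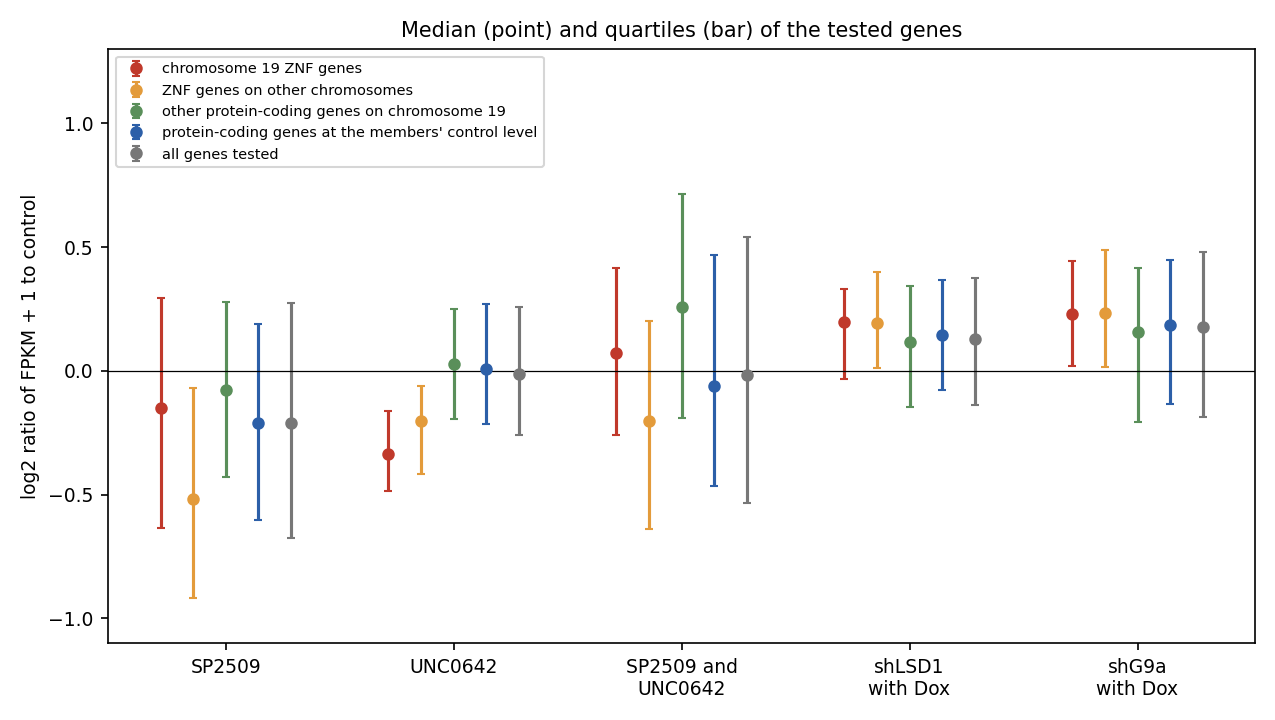
Log2 ratio of FPKM + 1 of treated over control library for tested genes in 5 comparisons (points are medians, bars run from the lower to the upper quartile), with chromosome 19 ZNF genes in red and 4 comparison sets in other colours. With UNC0642 the red bar, from -0.48 to -0.16, lies wholly below 0, as does that of ZNF genes on other chromosomes, from -0.42 to -0.06, while the bar of all genes tested in grey spans 0.

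ZNF181, a gene of KRAB and zinc fingers, had the lowest log2 ratio with UNC0642. Its reads went from 401 with vehicle to 204, and FPKM from 4.09 to 1.82 (log2 ratio -0.85, ratio of rates 0.445, 95% interval 0.374 to 0.529). ZNF440 fell from 2.24 to 0.852 FPKM (log2 ratio -0.80), ZNF888 from 1.65 to 0.528 (-0.80), ZNF527 from 1.22 to 0.304 (-0.77, with a ratio of rates of 0.249, below that of ZNF181, interval 0.166 to 0.365) and ZNF627 from 3.45 to 1.68 (-0.73). ZNF331, a repressor whose promoter is often methylated in digestive tract carcinomas, fell from 7.67 to 4.14 FPKM (928 to 573 reads, log2 ratio -0.75, ratio of rates 0.541, interval 0.486 to 0.601, adjusted p of the exact binomial test 8.14e-31). The member with the highest ratio with UNC0642 was ZNF121, at 6.69 FPKM with vehicle and 8.79 with UNC0642 (log2 ratio 0.35), under the fold needed for a call. Falls were thus of moderate size and spread over many genes.

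SP2509 gave larger changes in both directions. Of 98 members tested, 38 were lower and 17 were higher than with vehicle, against 37.3% lower and 18% higher among all 13342 genes tested, so the shares stood near the background. The median log2 ratio was -0.15 in the members and -0.21 in all genes. ZNF genes on other chromosomes were lower in 103 and higher in 18 of 178, with a median of -0.52.

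Among the genes that rose, ZNF841 went from 2.46 to 13.9 FPKM (165 to 1059 reads, log2 ratio 2.11, ratio of rates 5.65, interval 4.79 to 6.69). ZNF841 shares its strand and much of its span with ZNF432, which was at 1.47 and 2.00 FPKM and was not called, and reads of the pair cannot be separated here. ZNF83 rose from 1.35 to 4.11 FPKM (log2 ratio 1.12), ZNF121 from 6.69 to 14.0 (0.97) and ZNF317 from 7.99 to 15.0 (0.83). ZNF274, which brings SETDB1 to the 3′ ends of zinc finger genes, rose from 2.74 to 5.72 FPKM with SP2509 (358 to 848 reads, log2 ratio 0.84, adjusted p of the exact binomial test 5.69e-33) and to 4.60 with the combination (0.58), and was at 2.64 with UNC0642. In the genetic arm ZNF274 was between 2.89 and 3.24 FPKM and was not called.

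The lowest log2 ratios with SP2509 were those of ZNF302 and ZNF181, which lie in a run of 5 neighbours. ZNF302, ZNF181, ZNF599, ZNF30 and ZNF792 span chr19:34677639-34964049 (GRCh38), and none of the 5 overlaps another listed gene. ZNF302, a KRAB zinc finger gene, was at 11.5 FPKM in the vehicle library, 0.480 under SP2509, 7.12 under UNC0642 and 5.50 under the combination. Its 906 vehicle reads faced 43 with SP2509 (log2 ratio -3.08, ratio of rates 0.0418, interval 0.0300 to 0.0567, adjusted p of the exact binomial test 6.72e-235). ZNF181 was at 4.09, 0.278, 1.82 and 1.36 FPKM in the same order, and ZNF30 at 2.05, 0.164, 1.10 and 0.561. ZNF599 was at 1.34, 0.231, 1.05 and 0.366 FPKM, and ZNF792 stayed below the filter in this arm, at 0.558, 0.199, 0.251 and 0.238. Thus the SP2509 library was the lowest of the 4 for all 5 genes.

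The same 5 genes had higher FPKM with Dox than without in both lines. So did most members tested, 66 of 92 with shLSD1 and 73 of 95 with shG9a. Among all genes tested, 8210 of 12970 and 8289 of 13080 did. ZNF302 went from 7.57 FPKM without to 12.3 with Dox in the shLSD1 line (log2 ratio 0.64) and from 6.85 to 12.6 in the shG9a line (0.79). ZNF181 went from 1.56 to 3.05 and from 1.66 to 2.32, ZNF599 from 0.928 to 1.47 and from 0.996 to 1.71, ZNF30 from 0.595 to 1.19 and from 0.749 to 2.15, and ZNF792 from 0.758 to 1.21 and from 0.657 to 1.42. In the shLSD1 line 3 of the 5 were called higher, where 22.3% of all genes tested were, and in the shG9a line 4 of the 5, where 29.7% were. ZNF599, ZNF30 and ZNF792 were below 1 FPKM without Dox in both lines. They passed the filter only through the library with Dox and had to be higher there, so these counts are descriptions. After centring on the median ratio of well expressed genes, the log2 ratio of ZNF30 with shLSD1 was 0.34 and that of ZNF599 with shG9a 0.30, and these calls were lost. Of the 100-base windows of the ZNF302 transcript, 1.53% also occur in a gene elsewhere, chiefly ZNF181. Only exact windows were counted, so exchange of reads between ZNF302 and ZNF181 was not tested.

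**Figure D2:**
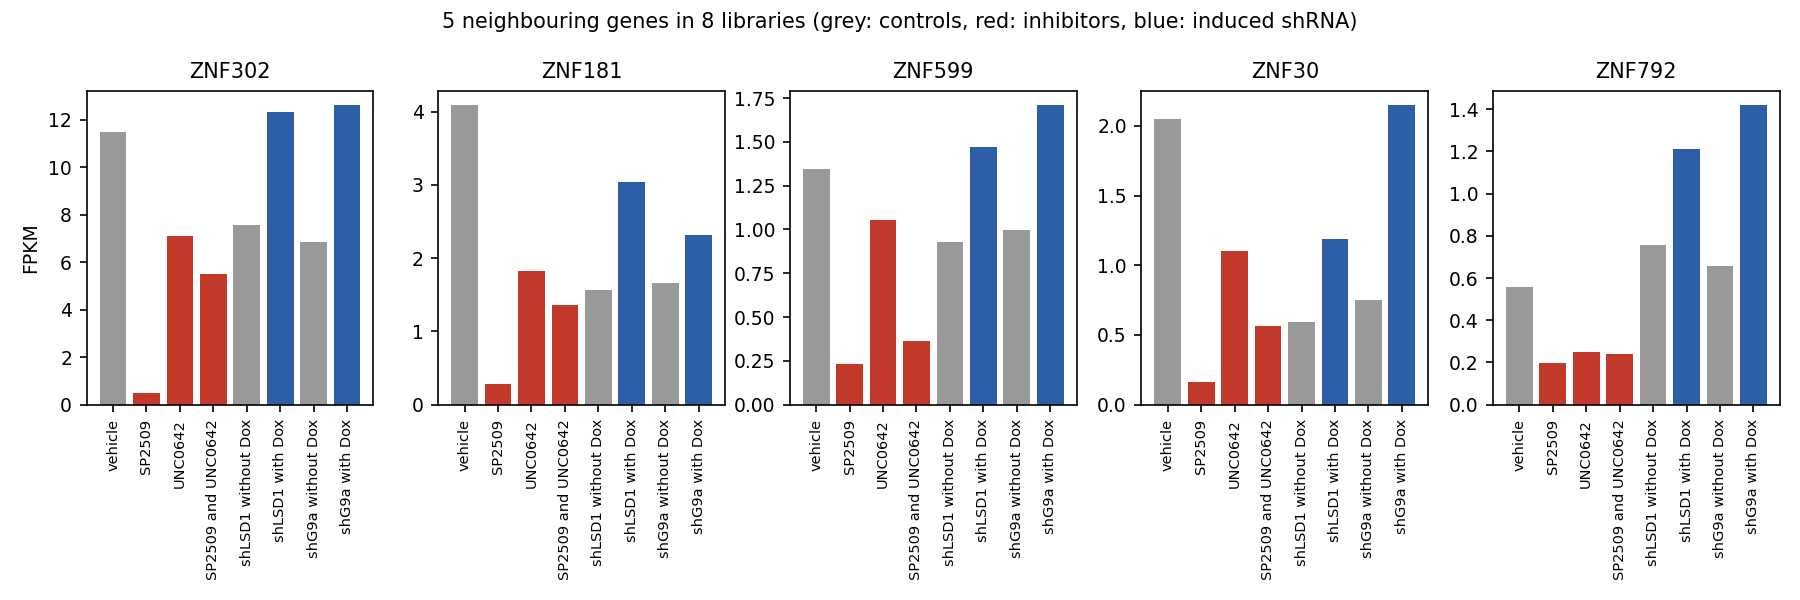
FPKM of ZNF302, ZNF181, ZNF599, ZNF30 and ZNF792, in order along the chromosome, in each of 8 libraries, 1 library per bar and no error bar. For all 5 genes the SP2509 bar is the lowest of the inhibitor arm, and both lines are higher with Dox than without.

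The next lowest log2 ratios with SP2509 were those of ZNF780A (3.44 to 0.416 FPKM, log2 ratio -1.65), ZNF580 (4.77 to 0.855, -1.64) and ZNF587B (2.26 to 0.218, -1.42). ZNF580 and ZNF581 overlap each other and CCDC106 on 1 strand. ZNF581 rose from 19.3 to 37.0 FPKM with SP2509 while ZNF580 fell, and since the files do not tell how shared reads were given out, their opposite changes are uncertain. ZNF586, which rose from 2.55 to 4.84 FPKM, shares its strand with ZNF587B and the opposite one with ZNF552, and ZNF552 fell from 2.26 to 0.395 FPKM. Across all 182 members, 47 overlap a listed gene on the same strand and 72 on the other strand.

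With the combination, 29 of 106 members were higher and 24 lower, against 28.8% higher and 28.9% lower among all 13907 genes tested. The median log2 ratio was 0.07 in the members and -0.02 in all genes tested. That sign turned with the filter: over the 73 members chosen from the uninduced shRNA libraries it was -0.05, with 16 higher and 17 lower. Over all 11431 genes so chosen the median was -0.07, with 25.7% higher and 31.3% lower. On the log2 (FPKM + 1) scale ZNF222 rose the most, from 1.79 to 4.44 FPKM (log2 ratio 0.96), followed by ZNF551 (1.36 to 3.56, 0.95), ZNF296 (2.75 to 6.11, 0.93), ZNF317 (7.99 to 15.8, 0.90), ZNF600 (2.67 to 5.85, 0.90) and ZNF823 (1.22 to 3.08, 0.88). The lowest log2 ratios were those of ZNF181 (-1.11), ZNF331 (7.67 to 3.30 FPKM, -1.01), ZNF30 (-0.96), ZNF302 (-0.94), ZNF580 (-0.94) and ZNF507 (5.39 to 2.35 FPKM, -0.93).

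The 3 inhibitor libraries share 1 vehicle library, so their values are set side by side without a test. The log2 ratios of ZNF302 with SP2509, UNC0642 and the combination were -3.08, -0.62 and -0.94, all called lower. Those of ZNF841 were 2.11, -0.51 and 0.54, called higher, lower and higher. Those of ZNF331 were 0.24, -0.75 and -1.01, and the first was not called. The dose of each agent in the combination is not stated apart, so the libraries may not be matched.

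Induction of either shRNA moved calls mostly upward. With shLSD1, 18 of 92 members were higher and 3 lower, against 22.3% higher and 10.3% lower among all 12970 genes tested, and with shG9a 29 of 95 were higher and 2 lower, against 29.7% higher and 15.7% lower among 13080. The median log2 ratios were 0.20 and 0.23 in the members and 0.13 and 0.18 in all genes tested. Genes at 5 FPKM or more in both libraries had medians of 0.11 with shLSD1 and 0.14 with shG9a, and after centring on these values 6 members were higher and 5 lower with shLSD1, against 15.2% and 13.6% of all genes, and 20 higher and 5 lower with shG9a, against 20.3% and 19.7%. Before centring the share called higher was near that of all genes in both lines. For shLSD1 most of the upward calls depended on the scaling. Members below 1 FPKM without Dox passed the filter only through the library with Dox and had to be higher there. The counts of calls are thus descriptions. With the filter set on the vehicle library, 17 of 93 members were higher and 3 lower with shLSD1 (21.2% and 9.25% of all genes). With shG9a 26 of 93 were higher and 2 lower (28.3% and 15.1%).

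ZNF552, a KRAB zinc finger gene, had the highest log2 ratio in both lines, going from 1.36 to 3.31 FPKM with shLSD1 (72 to 173 reads, log2 ratio 0.87) and from 1.25 to 4.48 FPKM with shG9a (62 to 232 reads, log2 ratio 1.28, ratio of rates 3.57, interval 2.69 to 4.81). In addition to its overlap with ZNF586 on the other strand, 10.5% of the windows of its transcript occur in other genes, chiefly ZNF814 and ZNF587B. After ZNF552 came ZNF181 and ZNF302 with shLSD1, then ZNF17 (0.494 to 1.15 FPKM, log2 ratio 0.53), ZNF507 (1.85 to 3.11, 0.53) and ZNF544 (1.56 to 2.66, 0.52). With shG9a they were ZNF30 (0.85) and ZNF302 (0.79), then ZNF580 (4.94 to 8.88 FPKM, 0.73), ZNF440 (1.31 to 2.74, 0.70) and ZNF616 (1.31 to 2.61, 0.64). ZNF17 with shLSD1 and ZNF30 with shG9a were below 1 FPKM without Dox and had to be higher. The few falls were ZNF581 (62.6 to 42.1 FPKM, log2 ratio -0.56), ZNF586 (2.02 to 1.05, -0.56) and ZNF784 (8.76 to 5.75, -0.53) with shLSD1, and ZNF841 (2.45 to 1.05, -0.75) and ZNF579 (13.0 to 8.71, -0.53) with shG9a. Of 88 members tested in both lines, 8 were higher in both (ZNF440, ZNF507, ZNF302, ZNF30, ZNF761, ZNF551, ZNF552 and ZNF324), which is 47.1% of the 17 higher with shLSD1 and 30.8% of the 26 higher with shG9a. Over all 12325 genes tested in both lines these shares were 57.4% and 43.6%, and the difference from the members' shares was not tested. ZNF30, ZNF551 and ZNF324 were below 1 FPKM without Dox in both lines and had to be higher. After centring on the median ratio, of the 8 only ZNF302 and ZNF552 stayed called higher in both lines. No member and 1.85% of all genes moved in opposite directions. The uninduced lines differed little. Of 80 members, 0 were higher and 1 lower in the uninduced shG9a line than in the uninduced shLSD1 line (ZNF296, 4.62 and 2.70 FPKM), against 0.9% higher and 1.35% lower among 12449 genes.

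The knockdown and the inhibitor of 1 enzyme share no control library. For LSD1, 84 members were tested with both. ZNF57 (log2 ratio 0.46 with the shRNA and 0.52 with SP2509) and ZNF121 (0.41 and 0.97) were higher with both (2.38%, against 2.18% of all 11769 genes tested with both), 0 were lower with both (1.55% of all genes), 11 were higher with the shRNA and lower with SP2509, and ZNF784, ZNF581 and ZNF586 were lower with the shRNA and higher with SP2509. The 11 made up 64.7% of the members higher with the shRNA and 33.3% of those lower with SP2509, and the corresponding shares over all genes were 60.3% and 34.1%, so the shares stood near the background. Across the 84 members the 2 sets of log2 ratios had a Pearson correlation of -0.61 and a Spearman correlation of -0.60, against -0.40 and -0.38 over all genes. Genes are not independent replicates, and the libraries of an arm are shared by all the points. With the shLSD1 median of 0.11 taken off, the shRNA ratios of ZNF57 and ZNF121 were under the fold needed for a call. So were those of ZNF77, ZNF440, ZNF30, ZNF45, ZNF480 and ZNF324 among the 11. ZNF77, ZNF30 and ZNF324 were also below 1 FPKM without Dox in the shLSD1 line and had to be higher with the shRNA.

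For G9a, 84 members were also tested with both. ZNF841 was lower with both (1.19%, against 3.48% of all 11906 genes tested with both), 0 were higher with both (3.97% of all genes), and ZNF627, ZNF440, ZNF302, ZNF30, ZNF761, ZNF580, ZNF552 and ZNF587B were higher with the shRNA and lower with UNC0642. These 8 were 32.0% of the 25 members higher with the shRNA and 22.2% of the 36 lower with UNC0642, against 10.6% and 22.4% over all genes. UNC0642 lowered 43% of the members and 13.6% of all genes tested, which enters the first share. ZNF30 and ZNF587B were below 1 FPKM without Dox in the shG9a line and had to be higher with the shRNA. Across the 84 members the 2 sets of log2 ratios had a Pearson correlation of 0.0008 and a Spearman correlation of 0.0342. Over all genes these were -0.1119 and -0.0066.

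**Figure D3:**
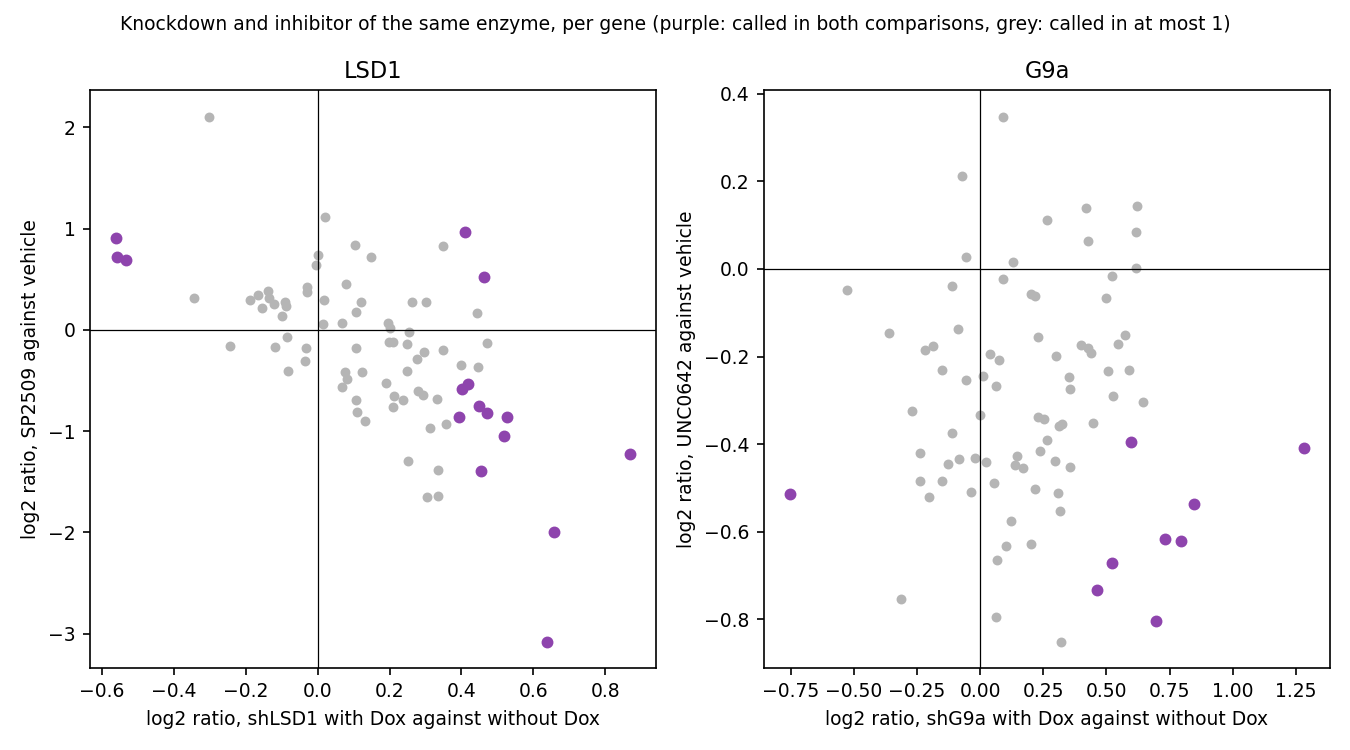
Log2 ratio of FPKM + 1 with the shRNA (x axis) and with the inhibitor (y axis) of LSD1 (left) and G9a (right), 1 point per member tested in both. In the left panel 11 purple points lie at lower right, 3 at upper left and 2 at upper right, and in the right panel 8 lie at lower right and 1 at lower left.

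Placed along the chromosome, the 182 genes fell into 17 groups separated by more than 1 Mb, of which 9 held at least 5 genes and 168 genes in all. The largest groups were ZNF628 to ZNF446 (50 genes, chr19:55476332-58481230), ZNF175 to ZNF331 (29 genes, chr19:51571298-53580269) and ZNF575 to ZNF296 (23 genes, chr19:43525497-45076588). With UNC0642, 12 of 17 tested genes were lower from ZNF175 to ZNF331 (median log2 ratio -0.45), 9 of 29 from ZNF628 to ZNF446 (-0.24) and 3 of 12 from ZNF575 to ZNF296 (-0.25). With SP2509, 6 of 19 were higher and 2 lower from ZNF175 to ZNF331 (median 0.27), while 5 were higher and 15 lower of 29 from ZNF628 to ZNF446 (-0.40) and 0 were higher and 5 lower of 13 from ZNF575 to ZNF296 (-0.17). Over all genes tested, 18% were higher and 37.3% lower with SP2509, and 15.4% were higher and 13.6% lower with UNC0642. The group from ZNF175 to ZNF331 held more rises than falls with SP2509. So did the group from ZNF557 to ZNF846, with 3 higher and 1 lower of 10 (median 0.27). With UNC0642 no group held a member called higher, and differences between groups were not tested.

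Calls of neighbours matched about as often as calls of any 2 members. Among pairs of adjacent tested genes that were both called, 18 of 32 moved the same way with SP2509 (56.3%, against 56.5% over all pairs of called members), 9 of 17 with the combination (52.9% against 49.5%), 3 of 4 with shLSD1 (75% against 74.3%) and 10 of 11 with shG9a (90.9% against 87.5%). All 15 such pairs were lower with UNC0642, where no member was higher. Without the run from ZNF302 to ZNF792, the shares were 51.7% with SP2509 (54.7% over all pairs), 42.9% with the combination (50.7%), 66.7% with shLSD1 (70.6%) and 88.9% with shG9a (85.8%).

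**Figure D4:**
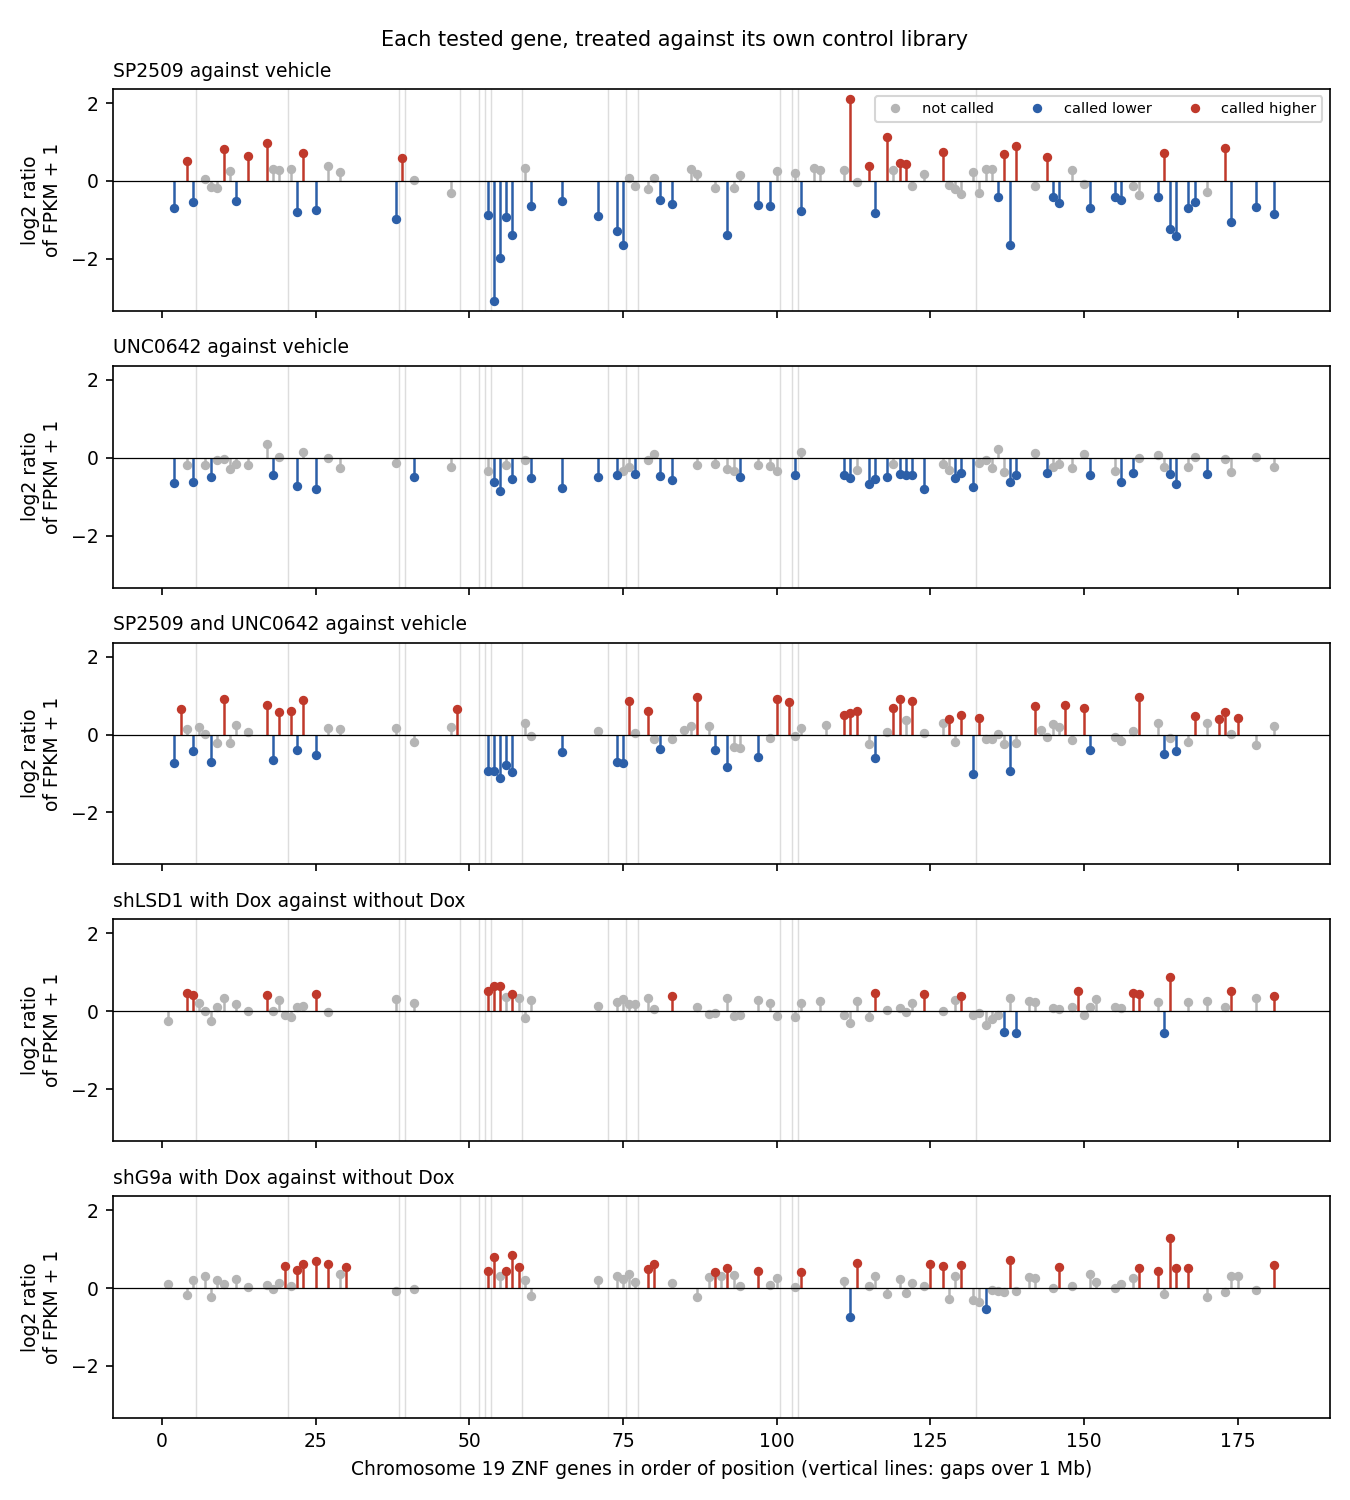
Log2 ratio of FPKM + 1 of treated over control library for each tested member in order of position on chromosome 19 (x axis, rank), 1 panel per comparison, with genes called higher in red, lower in blue and not called in grey. The run from ZNF302 to ZNF30 stands near rank 55, with all 4 genes blue with SP2509 and the combination and 3 of the 4 red in each shRNA panel, and the UNC0642 panel has 40 blue and 0 red points.

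Members with known roles behaved unevenly. Among those known to bind transposable elements, ZNF93 was at or below 0.0100 FPKM in the inhibitor arm, where alone it is listed. ZNF587 and ZNF417, close relatives that bind endogenous retroviruses, fell with SP2509 (2.55 to 1.19 and 1.32 to 0.588 FPKM), and ZNF417 was higher with the combination (2.24 FPKM). Both share over 10% of their transcript windows with other genes, so reads may have been split between copies. ZNF611 rose from 1.11 to 2.40 FPKM with the combination, and ZNF765 fell from 2.92 to 1.75 FPKM with UNC0642. Of the members whose promoters are often methylated in carcinomas, ZNF154, ZNF132, ZNF582, ZNF671 and ZNF577 stayed at or below 0.344 FPKM in every library where they are listed, and ZNF331 alone was tested. ZNF473, needed for the processing of histone mRNA, fell from 5.05 to 3.46 FPKM with UNC0642. ZNF224, a repressor and a partner of WT1, fell to 1.10 from 1.76 FPKM with the combination and rose from 1.51 to 2.31 FPKM with shG9a. ZNF653 rose from 0.793 to 1.72 FPKM with the combination, and ZNF350, a partner of BRCA1, reached 1 FPKM only with the combination and was not called.

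Stretches shared with other annotated genes were counted as exact 100-base windows, and their effect on the values was not tested. Of the 182 members, 137 had no 100-base window of their main GENCODE transcript in a gene at another position, 45 had at least 1, and 7 had over 10% (ZNF417, ZNF443, ZNF587, ZNF799, ZNF324B, ZNF585B and ZNF552), with 21.7% the highest.

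The partners through which KRAB zinc finger proteins act were measured as 23 genes of the corepressor and lysine 9 methylation machinery. With SP2509, 2 were higher and 11 lower (18% and 37.3% of all genes tested), with TRIM28 falling from 60.4 to 29.8 FPKM (log2 ratio -0.99). With UNC0642, 0 were higher and 1 lower (15.4% and 13.6% of all genes), CHD3, a helicase of the NuRD complex (28.2 to 20.2 FPKM, -0.46). With the combination, 2 were higher and 8 lower (28.8% and 28.9% of all genes), among them SETDB1 (9.69 to 5.25 FPKM, -0.77) and EHMT2 (11.1 to 5.38 FPKM, -0.93). With shLSD1, 2 were higher and 2 lower, KDM1A itself and CBX5 (22.3% and 10.3% of all genes), and with shG9a 11 were higher and 1 lower, EHMT2 itself (29.7% and 15.7% of all genes). TRIM28 with shG9a was at 69.2 FPKM, from 49.7 without Dox (0.47). CHD4, among the 11, was at 1.14 FPKM without and 2.04 with Dox in the shG9a line. In the inhibitor arm CHD4 was at 18.7 to 56.2 FPKM. The cause of this gap was not tested, so the CHD4 call is uncertain.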

How the data were processed

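The 8 RNA-seq libraries of Kyse510 cells, 1 per condition, were grouped by their labels. The authors deposited FPKM values in 2 tables, per the labels on GRCh38. The aligner, counter, strand setting and treatment of reads that map to several places are not given in the sources used here, and near-identical zinc finger genes and overlapping genes may share reads. The members and gene lists were chosen with earlier results of these data known.

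Library totals were estimated from genes with 1 exon, and each gene's length was taken as the smallest whole length that made all its values whole reads, or a multiple of it up to 4 where that matched the GENCODE 44 exon length. Recovered reads sum to 99.5% to 99.8% of the totals. For 5 members no single length served both tables. Reads were compared by a two-sided exact binomial test given the totals, with Benjamini-Hochberg adjustment over all tested genes (Python 3.11.15, numpy 2.4.6, scipy 1.17.1, pandas 2.3.3). Log2 ratios are of FPKM + 1, which understates changes of low genes. Intervals are exact at 95% and cover counting error only. The test was checked on simulated libraries. Promoters were aligned with Biopython 1.88. Named genes were the 6 called members with the largest change in each direction per comparison, those called alike with the shRNA and the inhibitor of 1 enzyme, the 5 highest, those with known roles and the ends of groups. Others are named where a count of members or a list is spelled out or the gene lies in a run or overlap, and these were chosen after their values were seen. Protein features were not analysed here. Alternatives were a pseudocount of 0.1, no filter, centring, unadjusted p, the smallest length, the other uninduced line as control, a gap of 500 kb and, chosen after seeing the data, a filter on the control libraries of the other arm and neighbours without the run from ZNF302 to ZNF792.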

Additional observations from a re-analysis of the deposited data

How the results depend on the processing

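With a pseudocount of 0.1 FPKM, 27 members were higher with SP2509, 1 with UNC0642 and 39 with shLSD1, and 5 were lower with shG9a. Centring on the median left 6 higher and 5 lower with shLSD1 and 5 lower with shG9a, and the uninduced shLSD1 line as control gave 5 lower with shG9a. The filter on the control libraries of the other arm, added after seeing the data, left 16 members higher with the combination and turned its median log2 ratio from 0.07 to -0.0467. The median over all genes tested with the combination moved from -0.0169 to -0.0678. The cause of these shifts was not tested. Other counts of members called stayed within 1.5 times under the alternatives run, and other medians kept their sign. Of 119 calls of named genes, 119 held with no filter or the smallest length, and 13 were lost on centring, all in the induced lines. A pseudocount of 0.1 or unadjusted p cannot remove a call, so the 119 that held there are no check. With the filter on the control libraries of the other arm, which leaves out genes below 1 FPKM there, 95 held. With the other uninduced line as control, 7 of 17 were lost with shLSD1 and 1 of 19 with shG9a. A gap of 500 kb gave 23 groups in place of 17. No paired analysis was possible because each condition has 1 library, and no replicate could be left out. A member at 1 FPKM had few reads (the median was 55 to 98.5 reads per library over the members), so small changes of low genes were not detectable at this depth.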
